A study of Mus musculus with 16 samples.

Results

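The 10 genes described here encode the creatine kinases of the cytosol and the structural proteins of the Z-disc and of the filaments anchored in it: Ckm, Ckb, Des, Ttn, Neb, Actn2, Actn3, Myoz2, Tcap and Ldb3. They were chosen by name from 21951 protein-coding genes. Every peak whose summit lay within a gene body or within 20 kb of either end, the gene window, was taken from each library. Open chromatin was profiled with ATAC-seq, which uses a transposase to tag accessible DNA with adapters, in the C2C12 iMyoD1 line. These mouse myoblasts have endogenous MyoD1 and a doxycycline-inducible Halo-MyoD1 transgene. GM no dox and GM +dox cells stayed in growth medium without differentiation, seeded at 75000 cells per well, and DM no dox and DM +dox cells were serum starved for 24 h, seeded at 300000 cells per well. The +dox cells received doxycycline for 24 h and the no dox cells did not, and all 4 groups carry the transgene. Each group had 4 biological replicates. The first replicate of both DM groups was left out, a choice taken from the study's methods. The remaining 14 libraries were compared. Medium and seeding density changed together and cannot be told apart.

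The sarcomere is the contractile unit of striated muscle, and its borders are the Z-discs, where alpha-actinin cross-links the thin filaments of neighbouring sarcomeres. Titin spans from the Z-disc to the middle of the sarcomere, nebulin runs along the thin filament, and desmin filaments tie neighbouring Z-discs together. Creatine kinase transfers phosphate between creatine phosphate and ADP and so buffers ATP in contracting muscle. During myogenic differentiation the muscle form, encoded by Ckm, is known to increase while the brain form, encoded by Ckb, is the form of many proliferating cells.

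The deposited lists of the 14 libraries held up to 58587 peaks, and the shortest, GM no dox replicate 1, held 25.1% as many. Their background coverage, recovered from each peak's fold enrichment and p, was 0.339 to 1.13 fragments per base. The left-out libraries had 14236 peaks at 0.167 fragments per base (DM +dox) and 1287 peaks at 0.398 (DM no dox). Longer lists hold more weak peaks, so the lists were compared both as deposited and as equal lists, in which each library keeps only as many of its peaks, by −log10 p, as the shortest list holds. A peak's rank counts from 1 for the strongest of its library. Of the myoblast markers, Myod1 and Chrna1 had a promoter peak (within 1 kb of a start site) in 14 of 14 libraries, Des in 13, Cdh15 in 10 and Myf5 in 6. The leukocyte, endothelial, epithelial and hepatocyte markers Ptprc, Cdh5, Epcam and Alb had a promoter peak in 0 libraries, while the endothelial marker Pecam1 had one in 8. In the equal lists Myod1 and Chrna1 kept theirs in 14 libraries and Cdh15 in 3, and Des, Myf5 and Pecam1 had one in 0. The libraries are of bulk cells, so a site open in fewer cells and a site less open in each cell cannot be told apart.

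The 10 windows held 59 separate regions in the deposited lists and 14 in the equal lists. A region is named here by the distance of its strongest summit from the annotated start of the gene, with minus for upstream. The sequences below are the plus strand of GRCm38 (mm10), 5′ to 3′, within 100 bp of the summit and without bases of untranslated exons. They were chosen, after their values were seen, as examples of regions that differed between groups, that were open in every library, or that lay at the start of a gene; other such regions are named below without their sequence. Capitals mark matches on either strand to CAGCTG (an E-box of the kind bound by MyoD1), the MEF2 consensus, the CArG box of SRF, CATTCC (TEAD, read as GGAATG on the other strand) and TGANTCA (AP-1).
Ckm +874 bp, chr7:19405550-19405750: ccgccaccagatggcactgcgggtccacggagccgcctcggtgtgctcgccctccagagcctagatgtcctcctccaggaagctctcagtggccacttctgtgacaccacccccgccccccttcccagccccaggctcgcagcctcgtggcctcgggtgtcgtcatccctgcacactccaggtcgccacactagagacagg
Ckb −19.1 kb, chr12:111691382-111691582: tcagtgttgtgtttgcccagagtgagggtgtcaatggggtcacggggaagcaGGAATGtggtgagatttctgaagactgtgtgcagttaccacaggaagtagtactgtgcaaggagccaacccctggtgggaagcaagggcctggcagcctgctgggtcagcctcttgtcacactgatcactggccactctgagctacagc
Des −12.8 kb, chr1:75347381-75347581: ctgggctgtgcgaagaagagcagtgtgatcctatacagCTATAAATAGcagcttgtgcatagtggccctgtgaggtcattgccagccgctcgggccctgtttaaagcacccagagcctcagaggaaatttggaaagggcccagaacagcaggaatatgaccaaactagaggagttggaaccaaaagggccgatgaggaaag
Des −85 bp, chr1:75360144-75360328: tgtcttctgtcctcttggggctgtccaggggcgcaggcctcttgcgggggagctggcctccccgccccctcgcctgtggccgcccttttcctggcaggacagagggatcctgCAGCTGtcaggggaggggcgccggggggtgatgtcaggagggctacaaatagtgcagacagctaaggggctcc
Ttn +295.3 kb, chr2:76687161-76687361: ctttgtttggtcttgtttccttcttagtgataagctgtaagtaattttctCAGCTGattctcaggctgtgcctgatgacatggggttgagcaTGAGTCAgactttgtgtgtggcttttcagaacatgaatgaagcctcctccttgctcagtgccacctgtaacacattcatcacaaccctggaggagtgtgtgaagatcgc
Neb +59.1 kb, chr2:52319228-52319428: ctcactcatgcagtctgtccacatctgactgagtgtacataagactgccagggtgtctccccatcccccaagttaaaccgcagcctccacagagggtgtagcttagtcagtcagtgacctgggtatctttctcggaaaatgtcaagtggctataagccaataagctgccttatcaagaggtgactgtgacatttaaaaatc
Myoz2 −19.4 kb, chr3:123054274-123054474: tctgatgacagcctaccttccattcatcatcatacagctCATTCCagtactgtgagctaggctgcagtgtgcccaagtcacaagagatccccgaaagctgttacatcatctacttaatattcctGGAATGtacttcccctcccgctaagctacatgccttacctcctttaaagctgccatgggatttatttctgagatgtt
Ldb3 +80.2 kb, chr14:34508344-34508544: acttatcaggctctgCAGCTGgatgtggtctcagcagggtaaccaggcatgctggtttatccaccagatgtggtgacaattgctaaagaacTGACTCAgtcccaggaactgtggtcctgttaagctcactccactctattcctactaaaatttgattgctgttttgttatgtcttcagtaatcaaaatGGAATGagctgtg
Ldb3 −49 bp, chr14:34588683-34588831: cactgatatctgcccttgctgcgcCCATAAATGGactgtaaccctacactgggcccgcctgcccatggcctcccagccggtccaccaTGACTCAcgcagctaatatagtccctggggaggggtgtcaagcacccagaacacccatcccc

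The marked motifs differed from region to region. Des −12.8 kb held the MEF2 consensus, Des −85 bp held CAGCTG, and Ldb3 −49 bp held a CArG box and TGANTCA. Ldb3 +80.2 kb and Ttn +295.3 kb both held CAGCTG with TGANTCA. Ldb3 +80.2 kb and Ckb −19.1 kb each held 1 CATTCC, and Myoz2 −19.4 kb held 2. Ckm +874 bp and Neb +59.1 kb held none of these letters in the window. Over all 59 regions, 15 (25.4%) held CAGCTG, against 19.6% of the 80290 regions of the whole series. CATTCC was in 11 (18.6%) against 17.5%, TGANTCA in 12 (20.3%) against 31.4%, the MEF2 consensus in 3 (5.08%) against 1.87% and the CArG box in 1 (1.69%) against 1.07%. The broader E-box CANNTG, which includes every CAGCTG, was in 39 (66.1%) against 67.9%. In the equal lists the order differed for both E-boxes: 1 of 14 regions (7.14%) held CAGCTG against 18.4%, and 6 (42.9%) held CANNTG against 61.4%. There, CATTCC was in 4 (28.6%) against 16.6% and TGANTCA in 4 (28.6%) against 33.5%. The MEF2 consensus and the CArG box were each in 1 (7.14%), against 1.4% and 1.13%.

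Together the 10 windows held 10, 10, 10 and 8 peaks of the equal lists in GM no dox replicates 1 to 4, and 10, 9, 10 and 10 in GM +dox. They held 4, 8 and 7 peaks in DM no dox replicates 2 to 4, and 6, 7 and 7 in DM +dox. The DM +dox libraries were all below the GM +dox libraries, and the DM no dox libraries were at or below the GM no dox libraries. The mean difference between DM and GM was −3.17 peaks without dox and −3.08 with dox, and between +dox and no dox it was 0.25 in GM and 0.33 in DM. Within replicate numbers 3 and 4 the difference between DM and GM was −1.5 without dox and −3.0 with dox. No test was made of this sum, because its members were chosen with results of these data known.

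As deposited, the same windows held 10, 30, 14 and 40 peaks in GM no dox and 49, 40, 37 and 33 in GM +dox. They held 13, 15 and 30 in DM no dox and 44, 37 and 36 in DM +dox. Longer lists held more of them, and the share of a library's peaks that lay in the windows differed as well. It was 0.0607% to 0.0811% in GM no dox and 0.0821% to 0.0903% in GM +dox, which do not overlap, and 0.0549% to 0.0739% in DM no dox and 0.0727% to 0.0857% in DM +dox, which do. Within the no dox groups the share was highest in the longest list, 0.0811% at 49300 peaks in GM and 0.0739% at 40599 in DM. The shortest GM no dox list (0.068%) was not the lowest, and in GM +dox the shortest list (36531 peaks) had the highest share. The part of list length was not tested, and the share for other genes is not given. No test was made of the share in these windows, for the same reason as for the sum.

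**Figure D1:**
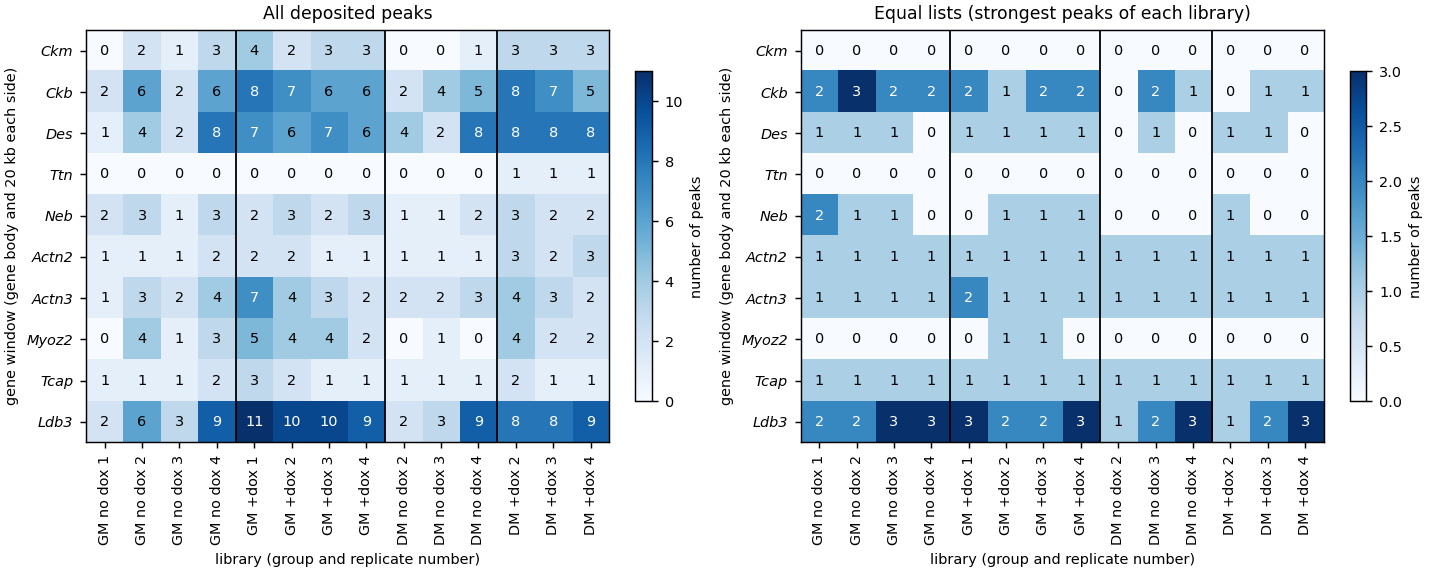
Number of peaks in each gene window (rows) and library (columns, by group and replicate number), in all deposited peaks (left) and in the equal lists (right). Colour and digits give the number of peaks. Ckm and Ttn are at 0 throughout the equal lists, Actn2 and Tcap are at 1 throughout, and the left panel varies with the length of the lists.

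The creatine kinase genes differed in how open their windows were. Ckm lies on chr7:19404776-19422841 on the plus strand. Its window held 0 peaks in all 14 equal lists. As deposited it held 0, 2, 1 and 3 peaks in GM no dox, 4, 2, 3 and 3 in GM +dox, 0, 0 and 1 in DM no dox and 3, 3 and 3 in DM +dox. The DM +dox libraries were thus all above the DM no dox libraries. The most frequent regions were Ckm −4.8 kb, at the promoter of Klc3, Ckm +874 bp and Ckm +16.6 kb in exon 8, and each had a peak in 9 of 14 libraries. Ckm +874 bp lies at the start of a non-coding transcript of the gene, 5.4 kb before the start of its longest coding transcript, whose own promoter had a peak (Ckm +6.1 kb) in 1 library. Ckm +874 bp ranked 17306 in its only GM no dox library, 17796, 27436, 18056 and 23648 in GM +dox, 30905 in its only DM no dox library, and 27514, 18581 and 21151 in DM +dox. It was therefore outside the equal lists everywhere.

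Ckb lies on chr12:111669361-111672338 on the minus strand. Its window held 2, 3, 2 and 2 peaks of the equal lists in GM no dox, 2, 1, 2 and 2 in GM +dox, 0, 2 and 1 in DM no dox and 0, 1 and 1 in DM +dox. The groups overlapped in every comparison. A single region was called in both arms of differentiation. Ckb −19.1 kb (chr12:111691263-111691866) is intergenic, and its summit is 13366 bp from the nearest coding start, that of Trmt61a. It was in the equal lists of 8 of 8 GM libraries and of 0 of 6 DM libraries.

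In GM no dox, Ckb −19.1 kb ranked 8469, 13279, 3439 and 10962, and in GM +dox 7093, 12067, 12828 and 9071. In the deposited lists it ranked 16779 and 34975 in DM no dox replicates 2 and 4, had no peak in replicate 3, and ranked 20335, 21792 and 29100 in DM +dox. All DM libraries were below all GM libraries. The same order held relative to the length of each list: the peak stood at 14.9% to 57.6% of the list in GM no dox and at 70.8% or beyond in DM no dox, and at 12.1% to 28.5% in GM +dox against 39.6% to 58.8% in DM +dox. The height of the summit, in fragments, was 19, 39, 40 and 64 in GM no dox and 18 in both DM no dox libraries with a peak, which do not overlap. It was 57, 63, 41 and 42 in GM +dox and 53, 31 and 30 in DM +dox, which overlap. Heights are not scaled for depth. The exact permutation p was 0.0571 in each arm, the smallest that 3 against 4 libraries allow, and adjusted over all regions it was 0.693 without dox and 0.614 with dox. Ranked by fold enrichment in place of −log10 p, the groups overlapped in both arms. The left-out DM +dox replicate 1 ranked 3840 there, at 27.0% of its list, and with it the +dox groups overlapped.

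At its own start Ckb had a peak, Ckb +11 bp in exon 1, in 10 of 14 deposited lists (4 of 4 in GM +dox, 2 of 4 in GM no dox and 2 of 3 in each DM group), with ranks from 16309 to 32592, and in 0 equal lists. Ckb −5.7 kb, in 9 equal lists, lies 56 bp from the start of Trmt61a, a tRNA methyltransferase gene, and is counted as the promoter of that gene.

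**Figure D2:**
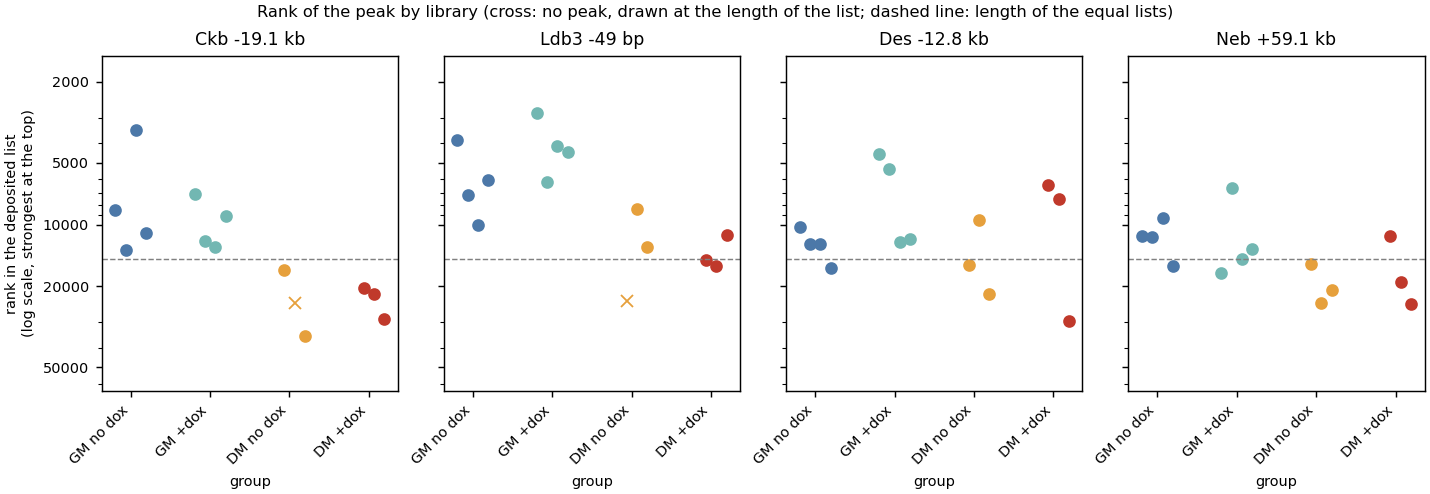
Rank of the peak in its deposited list (vertical, log scale, strongest at the top) for 4 regions in each of the 14 libraries, by group. Crosses mark libraries without a peak, drawn at the length of the list, and the dashed line is the length of the equal lists. At Ckb −19.1 kb the 8 GM points lie above the line and the DM points below it, and at Ldb3 −49 bp all GM +dox points lie above all DM +dox points.

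Desmin, the intermediate filament protein of muscle, is encoded by Des on chr1:75360329-75368579. Its window held 1, 1, 1 and 0 peaks of the equal lists in GM no dox, 1, 1, 1 and 1 in GM +dox, 0, 1 and 0 in DM no dox and 1, 1 and 0 in DM +dox. All were the same intergenic region, Des −12.8 kb, which had a peak in 14 of 14 deposited lists. It ranked 10241, 12493, 12386 and 16331 in GM no dox, 4521, 5332, 12216 and 11711 in GM +dox, 15734, 9545 and 21927 in DM no dox and 6403, 7477 and 29642 in DM +dox. The 4 strongest ranks were those of +dox libraries, but the groups overlapped in all 4 comparisons. The promoter region Des −85 bp had a peak in 13 of 14 libraries, missing in GM no dox replicate 1, which has the shortest list, and ranked from 15457 to 26906. As deposited, the Des window held 7, 6, 7 and 6 peaks in GM +dox and 8, 8 and 8 in DM +dox, which do not overlap (exact permutation p = 0.0571, adjusted over all genes 1.0), and in the equal lists the difference had the other sign.

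Titin and nebulin are the giant proteins of the sarcomere, and their genes cover 279 kb and 242 kb. The Ttn window, the longest, held 0 peaks in all 14 equal lists. As deposited it held 1 peak in DM +dox replicates 2, 3 and 4 and 0 in the other 11 libraries. That peak, Ttn +295.3 kb (chr2:76686901-76687373), lies past the end of Ttn within Plekha3, 2592 bp from the start of that gene, and ranked 40653, 26477 and 34787. There was no peak within the Ttn gene body or at a Ttn start in any kept library.

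The Neb window held 2, 1, 1 and 0 peaks of the equal lists in GM no dox, 0, 1, 1 and 1 in GM +dox, 0, 0 and 0 in DM no dox and 1, 0 and 0 in DM +dox. Neb +59.1 kb, in intron 10 of the transcript with the longest coding sequence, had a peak in 14 of 14 deposited lists. It ranked 11343, 11530, 9294 and 16004 in GM no dox, 17322, 6590, 14691 and 13103 in GM +dox, 15636, 24105 and 20833 in DM no dox and 11417, 19146 and 24466 in DM +dox. In DM no dox it was outside the equal lists in 3 of 3 libraries, but 1 GM no dox library was outside as well, so the groups overlapped. No peak lay within 1 kb of a Neb start.

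The windows of the alpha-actinin genes hardly varied in the equal lists. Actn2, the form of all striated fibres, held 1 peak in all 14 equal lists, and Actn3, the form of fast fibres, held 1 in 13 and 2 in GM +dox replicate 1, where both lay within the same region. Neither constant peak belongs to the actinin gene alone. The one at Actn2 +82.5 kb lies 128 bp from the start of Mtr, the methionine synthase gene, and Actn3 −713 bp lies 46 bp from the start of Zdhhc24. Actn3 −713 bp ranked from 2217 to 10258 over the 14 libraries. The start of Actn2 had no peak in any of them.

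As deposited, the Actn3 window held 1, 3, 2 and 4 peaks in GM no dox, 7, 4, 3 and 2 in GM +dox, 2, 2 and 3 in DM no dox and 4, 3 and 2 in DM +dox, and the groups overlapped in every comparison. The Actn2 window held 1, 1 and 1 peaks in DM no dox and 3, 2 and 3 in DM +dox. The added peaks were Actn2 +84.3 kb, within Mtr, in 3 of 3 DM +dox libraries, and Actn2 +56.8 kb, in intron 13, in 2 of 3.

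Among the adaptors of the Z-disc, Myoz2 (a calcineurin-binding partner of alpha-actinin) had no promoter peak, and its window was in the equal lists only through Myoz2 −19.4 kb in GM +dox replicates 2 and 3. As deposited that region had ranks of 35043 and 31011 in 2 GM no dox libraries, 16989, 12917, 12965 and 24665 in GM +dox, no peak in DM no dox and 19299, 19153 and 23927 in DM +dox. It was thus present in 7 of 7 +dox libraries and in 2 of 7 no dox libraries. The share of all regions with this presence is not given. In GM no dox it was missing in replicates 1 and 3, whose lists both ended before rank 31011. List length moved with its presence there, and the part of list length was not tested. The DM no dox lists without it held 23690, 24181 and 40599 peaks. Myoz2 −7.5 kb had the same presence, in 4 of 4 GM +dox, 3 of 3 DM +dox, 2 of 4 GM no dox and 0 of 3 DM no dox libraries.

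Tcap, which caps titin at the Z-disc, had no promoter peak, and the 1 peak of its window in all 14 equal lists was Tcap +16.5 kb, 103 bp from a start of Pgap3. Its ranks were 4771 to 11467.

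Ldb3, whose PDZ-LIM protein binds alpha-actinin, had the most regions, 13 of the 59. Its window held 2, 2, 3 and 3 peaks of the equal lists in GM no dox, 3, 2, 2 and 3 in GM +dox, 1, 2 and 3 in DM no dox and 1, 2 and 3 in DM +dox. The strongest region of all 10 windows outside promoters of other genes was Ldb3 +80.2 kb (chr14:34507966-34508789), an intergenic region past the end of the gene and 5103 bp from the start of Bmpr1a. It ranked 290, 486, 744 and 1789 in GM no dox, 677, 299, 902 and 1135 in GM +dox, 471, 2583 and 2345 in DM no dox and 313, 2191 and 5412 in DM +dox. The groups overlapped there in all 4 comparisons, but ranked by fold enrichment the DM +dox libraries were all below both the DM no dox and the GM +dox libraries.

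The promoter region Ldb3 −49 bp (chr14:34588045-34589007) ranked 3860, 7150, 10008 and 6056 in GM no dox and 2833, 6208, 4149 and 4404 in GM +dox. It had no peak in DM no dox replicate 2, ranked 8401 and 12945 in replicates 3 and 4, and ranked 14844, 15891 and 11218 in DM +dox. With dox the DM libraries were all below the GM libraries, also relative to the length of the lists (4.84% to 13.1% in GM +dox and 22.7% to 34.4% in DM +dox), and without dox the groups overlapped. Summit heights were 62, 84, 58 and 51 fragments in GM +dox and 58, 33 and 61 in DM +dox, which overlap. The exact permutation p with dox was 0.0571, the smallest possible, and the p adjusted over all regions was 0.614. The difference between the arms was not tested.

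**Figure D3:**
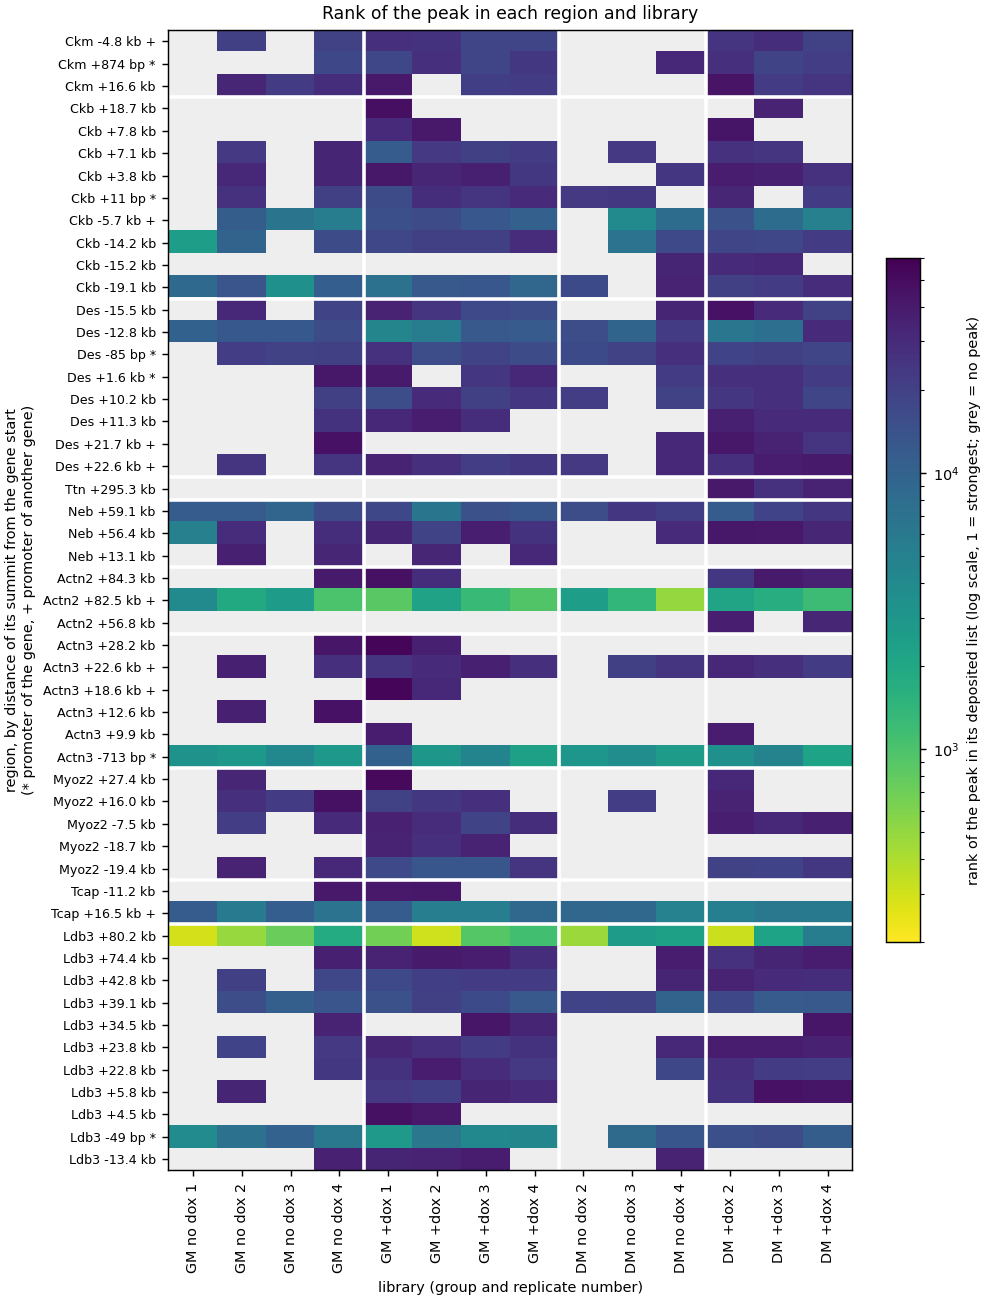
Rank of the peak (colour, log scale, grey for no peak) in the deposited list of each of the 14 libraries (columns) for the regions of the 10 windows with a peak in at least 2 libraries (rows). Stars mark promoters of the gene itself and plus signs promoters of other genes. The brightest rows are Ldb3 +80.2 kb and the promoters Actn2 +82.5 kb and Actn3 −713 bp, and the columns of GM no dox 1 and 3 and DM no dox 2 and 3, the shortest lists, have the most grey.

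Promoter peaks were present at some members and missing at others. As deposited, 5 of the 10 genes had a peak within 1 kb of an annotated start in at least 1 kept library, against 59.2% of all protein-coding genes, and 1 had one in all 14 against 26.3%. That gene was Actn3, with the start shared with Zdhhc24. In the equal lists the shares were 2 of 10 against 44.9%, and 1 of 10 against 18.4%. Ttn, Neb, Actn2, Myoz2 and Tcap had none in any kept library, in GM or DM, with or without dox.

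**Figure D4:**
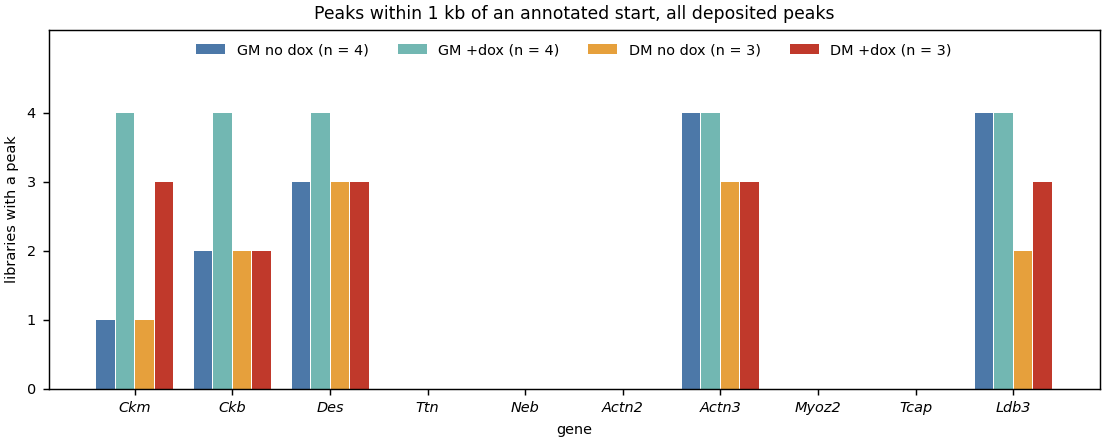
Number of libraries (vertical) with a peak within 1 kb of an annotated start of each gene in the deposited lists, by group (4 libraries each in GM and 3 each in DM). Ckm, Ckb, Des, Actn3 and Ldb3 have bars, and Ttn, Neb, Actn2, Myoz2 and Tcap are at 0.

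The comparisons of +dox with no dox ask whether raised MyoD1 changed accessibility at these genes. In the equal lists, 0 of 14 regions in GM and 0 of 10 in DM had ranks that did not overlap between +dox and no dox, where 1.93% and 8.65% of all regions did. Of the 10 windows, 0 had peak numbers that did not overlap in GM and 0 in DM, against 0.368% and 2.18% of all genes. Here and below, such shares count only genes with a peak in the compared libraries. A window without a peak there could not differ. This holds for Ckm and Ttn in the equal lists, for Myoz2 in those of DM, and for Ttn in the deposited lists of GM. As deposited, 0 of 52 regions were all-or-none in GM, meaning with a peak in every library of one group and in none of the other, against 0.446% of all regions, and 0 windows did not overlap against 1.34% of genes.

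In DM the deposited lists gave another count. There, 8 of 48 regions had a peak in all DM +dox and in no DM no dox libraries, against 5.37% of all regions: Ckm −4.8 kb, Ckm +16.6 kb, Des +11.3 kb, Ttn +295.3 kb, Actn2 +84.3 kb, Myoz2 −7.5 kb, Myoz2 −19.4 kb and Ldb3 +5.8 kb. The windows of Ckm, Ttn, Actn2 and Myoz2, 4 of 10, held more peaks in every DM +dox library, against 19.6% of all genes. Their means were 3.0 against 0.333 for Ckm, 1.0 against 0.0 for Ttn, 2.67 against 1.0 for Actn2 and 2.67 against 0.333 for Myoz2, with an exact permutation p of 0.1 each, the smallest that 3 against 3 libraries allow, and an adjusted p of 0.51, the lowest of any gene. With a 10 kb flank the Ckm window alone did not overlap (the difference for Ttn was 0.0, for Actn2 0.67 and for Myoz2 1.33), and in all 16 libraries all 4 windows overlapped. The share of all genes that did not overlap with this flank is not given. The dox effect in DM minus that in GM was 1.0 peaks for Ttn, 1.42 for Actn2, 1.17 for Ckm and 0.583 for Myoz2. The exact permutation p was 0.0571, 0.098, 0.4 and 0.86, with GM and DM labels permuted within each dox arm. The adjusted p was 1.0 for Ttn and Actn2. The effect had the other sign for Ldb3 (−1.33), Actn3 (−0.833) and Tcap (−0.167). The DM +dox lists held 46241 to 51340 peaks and the DM no dox lists 23690 to 40599, so list length moved with this count.

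The comparisons of DM with GM ask what changed with differentiation. In the equal lists without dox, 1 of 12 regions was lower in DM, against 3.96% of all regions, and 0 were higher, against 4.29%. With dox, 2 of 12 were lower, against 4.18%, and 0 were higher, against 5.12%. The regions were Ckb −19.1 kb in both arms and Ldb3 −49 bp with dox. Ckb −19.1 kb was all-or-none in both, as were 1.04% of all regions without dox and 1.1% with dox. Over the 4 comparisons the lowest adjusted p of any region of the series was 0.614. Of the 10 windows, 0 did not overlap in either arm, against 2.42% of genes without dox and 2.47% with dox. The Ckm and Ttn windows, and without dox that of Myoz2, held no peak of the equal lists and could not differ. As deposited, 0 of 45 regions were all-or-none without dox (0.411% of all regions), and with dox 2 of 56 were higher in DM, Des +21.7 kb at the promoter of Speg and Ttn +295.3 kb, against 1.49%. Compared by rank, these 2 of 56 were higher in DM +dox, against 6.31% of all regions, and 5 of 56 were lower, against 4.04%: Ckb −19.1 kb, Ckb +7.1 kb, Ldb3 −49 bp, Ldb3 +23.8 kb and Ldb3 +42.8 kb. The windows not overlapping were 0 of 10 without dox (0.225% of genes) and, with dox, those of Des and Ttn, higher in DM (2.21% of genes), and both overlapped with a 10 kb flank and in all 16 libraries.

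A list of 42 other genes of the creatine system, Z-disc, M-band and intermediate filaments was described in the same way. In the equal lists, 0 of 32 genes with a peak changed without overlap with dox in GM, against 0.368% of all genes. With dox in DM, 2 of 26 held more peaks, where 2.18% of all genes did not overlap: Flnc, an actin cross-linker of the Z-disc, with 4 in every DM +dox library against 2 to 3, and Ankrd2, a titin-binding stress protein, with 3 against 2. With differentiation, Lmod3, a nucleator of thin filaments, held 0 peaks in every DM library against 1 to 2 in GM without dox and 1 in GM with dox, 1 of 31 and 1 of 30 genes lower. Xirp1, an actin-binding protein of muscle, held 3 to 5 in DM +dox against 1 to 2 in GM +dox, the 1 gene higher of 30. The shares of all genes that did not overlap in either direction were 2.42% without dox and 2.47% with dox. As deposited, both genes overlapped between DM and GM. Xirp1 had a mean of 6.67 peaks in DM +dox and 7.25 in GM +dox. Lmod3 had 1.67 in DM no dox and 1.75 in GM no dox, and 2.67 in DM +dox and 2.25 in GM +dox. With dox in DM, Ankrd2 overlapped as deposited (5.67 against 3.33) and Flnc did not (6.0 against 3.67). As deposited, 16 of 41 (39.0%) held more peaks in DM +dox than in DM no dox, against 19.6% of all genes, and 0 held fewer, and list length moved with this count as for the 10 genes. The others were Mybpc2 with dox in GM and Ckmt1, a mitochondrial creatine kinase, with differentiation in +dox cells, both higher.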

How the data were processed

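Narrow peak lists of 16 ATAC-seq libraries were used. The authors aligned reads to mm10 with nf-core/atacseq 2.1.2, removed blacklisted regions and called peaks with MACS2, 1 library at a time. The versions of MACS2 and deepTools are not given in the sources used here. The deposited columns hold a score, a fold enrichment over local background (a ratio), the −log10 of p and of q, and the summit offset in bp. The lowest deposited −log10 q was 1.3. Read counts were not used, and hence no count model.

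The members and lists were chosen with earlier results of these data known. Windows are GENCODE M21 gene bodies with 20 kb on each side, and a peak belongs to the window that holds its summit. Overlapping peaks of the 14 kept lists were merged into 26213 regions (equal lists) or 80290 (as deposited). A region without a peak was given the rank after the last. Groups were compared by two-sided exact permutation tests of mean rank or peak number, with Benjamini-Hochberg adjustment over all regions or genes with a peak. With 4 libraries on each side p could reach 0.0286, with 3 against 4 it could reach 0.0571, and with 3 on each side 0.1. A region was called where the ranks of both groups did not overlap. All 10 members are named, with regions at a member's promoter, in all 14 libraries or called; other regions named were chosen after their values were seen.

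Depth is not stated in peak lists. Whole summit pileups were solved from fold and p (within 0.001 in −log10 p, for peaks with −log10 p under 30) in 100% of such peaks, and the lowest background of a list was taken as its coverage. No 2 of the 120 pairs of lists were identical. Same-numbered libraries deviated together. Correlations were 0.177 to 0.486 with dox in GM, 0.148 to 0.471 with dox in DM and 0.226 to 0.525 with differentiation in +dox. With differentiation without dox the lowest was 0.0618. The permutation tests and the calls did not use this pairing. Same-numbered libraries were paired only in the replicate block. The tests were checked on simulated data. Alternatives were list length, ranking, window, merging, libraries left out, all 16 libraries, replicate numbers and the replicate block. Python 3.11.15, pandas 2.3.3, numpy 2.4.6, scipy 1.17.1 and matplotlib 3.10.9 were used.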

Additional observations from a re-analysis of the deposited data

Results flagged for a closer look

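In groups of 4 libraries, a value was set apart where its gap to the nearest of the others exceeded Dixon's 95% limit, which chance gives in about 1 in 20 groups; 12 of 81 groups passed. With small whole numbers the limit is passed whenever 3 libraries are equal and 1 differs, as in 9 of these. In the equal lists they were the windows of Ckb in GM no dox replicate 2 (3 peaks, the others 2) and GM +dox replicate 2 (1, the others 2), Des in GM no dox replicate 4 (0, the others 1), Neb in GM +dox replicate 1 (0, the others 1) and Actn3 in GM +dox replicate 1 (2, the others 1), and the sum over the windows in GM no dox replicate 4 (8, the others 10) and GM +dox replicate 2 (9, the others 10). As deposited they were Actn2 and Tcap in GM no dox replicate 4, each with 2 peaks where the others had 1.

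The other 3 were summit heights in GM +dox replicate 2, which stood above the other GM +dox libraries at Neb +59.1 kb (84 fragments), Neb +56.4 kb (48) and Ldb3 +80.2 kb (213). Heights are not scaled for depth, and the background of this library was 0.641 fragments per base, within the 0.377 to 0.866 of its group.

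The left-out library DM +dox replicate 1 entered none of the main comparisons, only the settings with all 16 libraries. Taken whole, it held 9 peaks in the 10 windows, where the kept DM no dox libraries held 4 to 8. In the Ckb window it held 4, where they held 0 to 2, and in the Neb window 1, where they held 0. The kept libraries of its own group, DM +dox, held 6 to 7 in the 10 windows and 0 to 1 in each of the Ckb and Neb windows. In the sum and in the Ckb window it was thus above its own group as well. Its list has 14236 peaks, fewer than the equal lists of the others, which these values are set against.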

How the results depend on the processing

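The summed peak number kept its sign in every alternative without dox. There, DM against GM gave −1.5 in equal lists cut again at 50% of their length. It gave −6.0 within replicate numbers 1 and 2, which is 1 library against 2, and −1.5 within 3 and 4, which is 2 against 2. With dox it gave −0.75 in all deposited peaks, −0.58 in the shorter lists, −1.83 ranked by fold, −1.25 with a 10 kb flank and −2.5 in all 16 libraries, and 0.92, the other sign, in uncut lists at −log10 q of at least 5. With the replicate block both were −3.0. With 3 or 4 pairs the smallest sign-flip p is 0.25 or 0.125, so the block could make no call for a window, and region ranks were not tested with it. For dox in GM the sum was 16.25 in all deposited peaks, 17.25 at −log10 q of at least 5 and 2.42 in the 23078 strongest (chosen after seeing the data, without GM no dox replicate 1). For dox in DM it was 19.67, 22.67 and 3.33. It was 2.0 in all 16 libraries, and 2.0 within replicate numbers 1 and 2, which is 1 library against 1. List length changes by construction in the settings that cut or do not cut the lists.

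The counts of called regions that follow are given without the share of all regions called in the same setting. They describe how the calls moved and are not a result about these genes. Regions called for dox in GM were 0, but 2 in all deposited peaks (both higher), 3 within replicate numbers 3 and 4 and 1 in the 23078 strongest. For dox in DM they were 0, but 10 in all deposited peaks (all higher) and 2 ranked by fold (both lower, Ldb3 +80.2 kb and Actn3 −713 bp). The DM +dox lists were longer than the DM no dox lists, so list length moved with the 10. Without dox, DM against GM gave 1, but 0 in the shorter lists and with a 10 kb flank, which leaves out Ckb −19.1 kb by construction, and 2 within replicate numbers 3 and 4. Ranked by fold it also gave 1, but of the other direction and another region, Actn3 −713 bp, higher in DM. With dox it gave 2, but 7 in all deposited peaks (2 higher and 5 lower), 1 in the shorter lists, with a 10 kb flank and in all 16 libraries, and 5 within replicate numbers 3 and 4. Leaving out 1 library gave 0 to 1 for dox in GM (1 without GM no dox replicate 1), 0 to 1 for dox in DM (1 without DM no dox replicate 4 or DM +dox replicate 4), 1 to 2 without dox (2 without GM no dox replicate 3 or 4 or DM no dox replicate 2 or 3) and 2 to 4 with dox (4 without DM +dox replicate 2).

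Windows that did not overlap were 0 in all 4 comparisons, but in all deposited peaks 4 for dox in DM and 2 for differentiation with dox, and 1 (Ckm) without dox in the 23078 strongest. Leaving out 1 library gave 0 to 1 without dox (Neb without GM no dox replicate 4, Ckb without DM no dox replicate 3) and 0 to 1 with dox (Ckb without GM +dox replicate 2). The counts in the 23078 strongest and with 1 library left out are given without the share of all genes in the same setting. They describe how the calls moved and are not a result about these genes. The Des window with dox, 1.5 peaks higher in DM as deposited, was −0.33 in the equal lists and in the 23078 strongest and −0.25 in all 16 libraries. The cause of these changes was not tested where none is named.

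List length limits the weaker regions: a region missing from a short list cannot be told from one below its last rank.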
